A study of Drosophila melanogaster with 23 samples.

Results

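The small nucleolar RNA (snoRNA) genes of the fly brain were followed across adult life in both sexes. The set comprised every gene of the count table whose symbol begins with snoRNA:, except the copies of Psi18S-1377, and held 268 of the 17521 genes in the table. RNA was sequenced from whole brains of the wild-type strain Canton-S, aged in single-sex vials with no transgene or drug, aged 5, 20, 30 or 40 days. Levels are given as CPM, counts per 1000000 counts of a library after scaling. Each library was made from a pool of 18 brains, with 3 libraries (replicates A, B and C) for each sex and age, except 30-day-old males, which had 2 (replicates B and C). The study compared the ages within each sex, to find transcripts whose abundance differs between young and old brains.

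SnoRNAs are short nuclear RNAs that guide enzymes to chosen nucleotides of ribosomal RNA. Those of the H/ACA class direct the conversion of uridine to pseudouridine by a dyskerin complex (Nop60B in the fly), and those of the C/D class direct ribose methylation by fibrillarin. Most fly snoRNAs are released from introns of host genes after splicing, many of which encode ribosomal proteins, and closely related copies often sit side by side in one host.

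The members' names gave their classes. There were 41 Psi18S and 63 Psi28S genes, named for pseudouridines of the small and the large ribosomal RNA, and 5 Or-aca genes, orphans of the H/ACA class with no assigned target. The C/D class was represented by 30 Me18S genes, 64 Me28S genes, 4 other Me genes and 12 orphan Or-CD genes, and 49 genes carried other names. Of the 268 genes, 238 were matched to the Release 6 annotation. Of these, 89 lay on chromosome 2R, 44 on 3L, 38 on 3R, 36 on 2L, 30 on X and 1 on chromosome 4. A host gene on the same strand enclosed 225 of the 238, protein-coding for 171 and noncoding for 54, with 78 different hosts in all, and 13 had no host. Grouping members that shared a host or lay within 1000 bases of each other gave 87 units, 23 of which held 3 or more members. Many members were near copies of one another, and 113 shared a name with another lettered gene. Reads that fit several copies cannot be assigned with certainty, so values of lettered copies are uncertain to that extent.

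The libraries held between 6770442 (40-day-old females, replicate B) and 28687450 (5-day-old females, replicate C) counts, with a median of 15628443. Depth went with age. Every 5-day-old library held at least 21133499 counts, every 20-day-old one at most 16036581 and every 40-day-old one at most 16124005. The 30-day-old libraries held 12541109 to 25981392. Comparisons of 20 and 40 days with 5 days thus set shallower libraries against deeper ones. The roX1 RNA of the male dosage compensation complex, at 14 to 71 CPM in females and 2367 to 4674 in males, matched every library's labelled sex. Transcripts of tissues other than the brain varied widely among libraries. The summed level of 8 midgut genes ranged from 0.765 to 22280 CPM, and the midgut gene mex1 exceeded 10 CPM in 5 libraries, which were 5-day-old female B, 30-day-old female A and B, 40-day-old female A and 40-day-old male C. In bulk tissue, fewer cells of a type and less RNA per cell cannot be told apart.

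SnoRNAs were a thin layer of these libraries, and the long ones carried most of it. All 268 members together took 0.0281% to 0.0684% of the counts of a library, 175516 counts in all. Per kilobase of gene, the highest mean levels over the 23 libraries were those of SC35-a (343 CPM per kilobase), Or-CD2 (247), Psi18S-1820 (228), Psi28S-1060 (178), Psi28S-3436a (135), Psi18S-1389a (108) and Psi18S-1854c (100.4). SC35-a lies in an intron of the gene for the splicing factor SC35, and Or-CD2 in the noncoding snoRNA host gene Uhg4, where it also overlaps an exon of Ctu1. The 12 highest members per kilobase, Psi28S-1175a (70.6) and Psi18S-531 (69.1) among them, carried 58.7% of the summed level per kilobase. The rule for named members took the highest CPM without regard to length. The remaining members it named were Or-aca5 (91.1 CPM per kilobase), Psi28S-1192a (78.8), Psi28S-2442b (73.1), Psi28S-291 (62.3) and Tudor-SN-a (45.6).

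Length separated measured from barely measured members. The 127 members over 130 bases had a median of 4.82 CPM per kilobase and held 92.3% of the summed level per kilobase, and 41 of them reached 10 CPM per kilobase. The 98 members of 100 bases or less had a median of 0.560 CPM per kilobase, and 4 reached 10 CPM per kilobase. Class and length went together, because H/ACA-type genes are the longer ones. Members with Psi or Or-aca names had a median of 4.80 CPM per kilobase (n = 106) and those with Me or Or-CD names one of 0.622 (n = 83). How far recovery of short RNAs by the extraction kit entered these levels was not tested. All 18 members that overlap an exon of their host had no count in any library, whereas 8 of the 207 members wholly inside an intron had none. The authors' rule of counting drops reads that touch more than 1 gene, and its part in this was not tested. Counts from unspliced host RNA that reach into a snoRNA are credited to the snoRNA under the same rule, and their share was not tested.

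**Figure D1:**
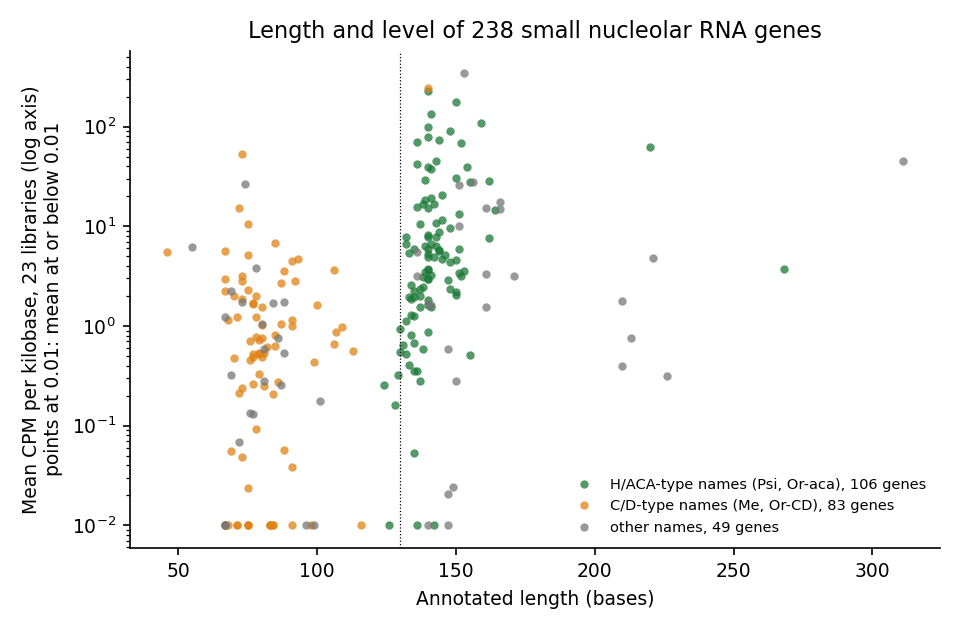
Mean level over 23 libraries in CPM per kilobase (log axis) against annotated length in bases, 1 point a gene, for the 238 members matched to the annotation, coloured by the class in the name; the dotted line marks 130 bases. Members over 130 bases reach 343 CPM per kilobase, and those of 100 bases or less have a median of 0.560.

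The summed level of the members stood apart in a pair of young libraries. In 5-day-old females it was 362, 292 and 688 CPM in replicates A, B and C, and in 5-day-old males 319, 670 and 331 CPM. In 20-day-old females the sums were 528, 599 and 542 CPM, in 30-day-old females 331, 506 and 469 CPM, and in 40-day-old females 344, 418 and 387 CPM. In males they were 353, 431 and 382 CPM at 20 days, 269 and 384 CPM at 30 days (replicates B and C), and 434, 429 and 470 CPM at 40 days. Female replicate C and male replicate B at 5 days were thus the highest of all 23. Every age overlapped 5 days, whereas in females the 20-day-old libraries lay above all 30- and 40-day-old ones, and in males the 40-day-old libraries above both 30-day-old ones. The same libraries were the highest for the small Cajal body RNAs, which guide modification of spliceosomal RNAs, with 245 and 260 CPM against 24.6 to 147 CPM in the others. Every comparison with 5 days below rests in part on them.

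**Figure D2:**
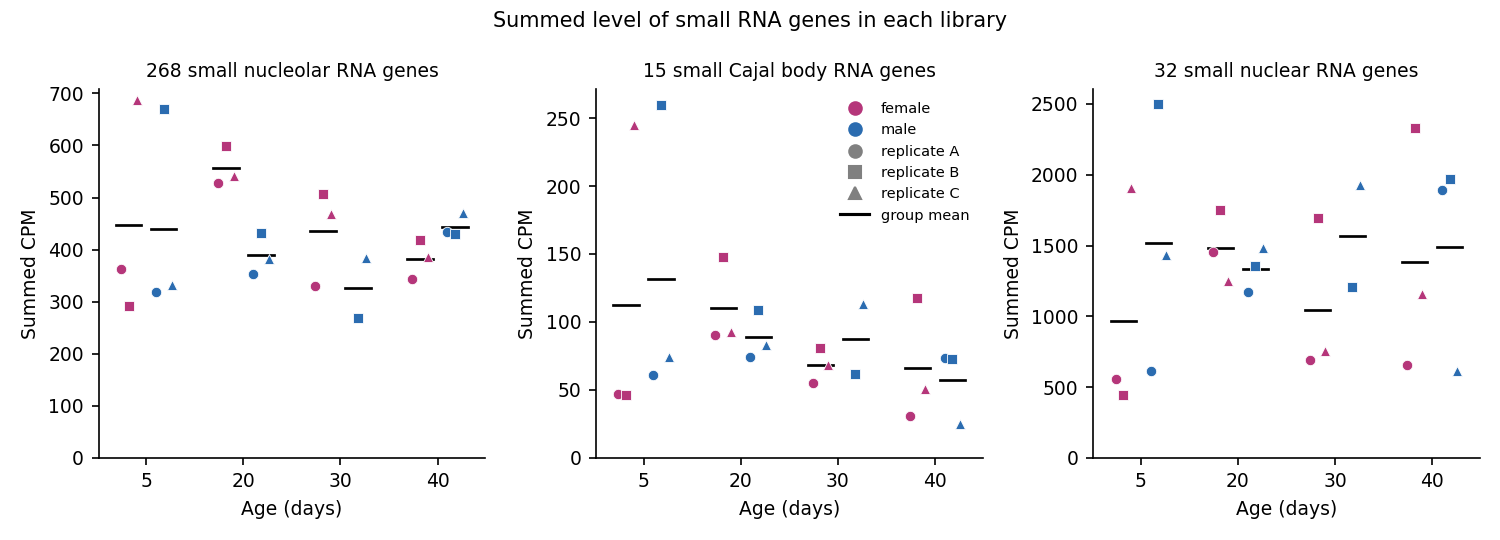
Summed level in CPM (linear axes) of the 268 snoRNA genes, of 15 small Cajal body RNA genes and of 32 small nuclear RNA genes in each library, by age in days; points are libraries, shapes replicates, bars group means. The 5-day-old female replicate C (688 CPM) and male replicate B (670 CPM) stand above all others in the snoRNA panel.

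Fewer different snoRNAs were seen at 20 days. In females, 111 to 126 members had at least 1 count at 20 days and 147 to 192 at the other ages. In males these numbers were 91 to 128 and 128 to 193. Scaled to the depth of the smallest library, the expected numbers were 107.1 to 120.0 and 88.2 to 120.6 at 20 days, and from 120.7 to 161.4 at the other ages of both sexes. All genes at that depth were also fewer at 20 days, with 10604 to 11058 against 11204 to 11857 at the other ages. In proportion this difference was smaller than that of the members, and the reason was not tested.

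Filters on low counts left 94 members in the test of females, 116 in that of males and 88 in both. Of the members over 130 bases, 80 were tested in females and 92 in males, and of those of 100 bases or less, 8 and 12. A member was called when edgeR's quasi-likelihood test passed a 5% false discovery rate over all genes, both over the 4 ages and in the pair of ages compared. In females, 13 of 94 members differed over the ages, beside 14.5% of all genes tested. They were Dek-a, Me18S-C1096, Me18S-C1831, Psi18S-531, Psi18S-1820, Psi18S-1854c, Psi28S-1175a, Psi28S-1192a, Psi28S-3327b, Psi28S-3436a, Psi28S-3436b, SC35-a and lola-b. At 40 against 5 days 3 members rose and 4 fell, 7 of 94, beside 7.34% of all genes tested (2.47% rose and 4.87% fell), so the share of members called was near the background. The summed level of 5 fat body genes, yolk protein genes among them, moved with this comparison, at 22182 to 62247 CPM in 5-day-old females and 3792 to 10421 CPM in 40-day-old ones, below every younger female library. Of these genes 4 were tested, all lower and none called (median log2 fold change -2.49), and their part in the members' values was not tested. Leaving out 1 female library at a time gave between 4 and 20 members over the ages, 4 without 40-day-old female B or C and 20 without 5-day-old female C. The same omissions gave 3 to 12 members at 40 against 5 days, 3 of them without any 1 of the 40-day-old libraries. Without 5-day-old female C, 7 of 113 members rose and 5 fell, beside 511 of 10783 genes that rose and 686 that fell. For the other omissions the share of all genes called is not given here.

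Of the 3 members that rose in 40-day-old females, 2 lie in introns of RpL17, which encodes a protein of the large ribosomal subunit. The gene holds 4 members on the minus strand of chromosome X, all of which guide, by their names, pseudouridines of 28S rRNA. Psi28S-3436a (X, 6742686 to 6742826) stood at 13.9, 8.95 and 6.41 CPM in 5-day-old females, 12.7, 10.1 and 10.9 CPM at 20 days, 20.1, 26.0 and 16.7 CPM at 30 days and 35.9, 32.8 and 49.4 CPM at 40 days. Every 30-day-old library lay above every 5-day-old one, and every 40-day-old library above all 30-day-old ones. The level rose from 9.75 ± 3.80 (SD, n = 3) to 39.3 ± 8.81 CPM (n = 3), a log2 fold change of 2.02 ± 0.28 (SE; edgeR adjusted p = 0.00237), and was already higher at 30 days (1.05 ± 0.28, adjusted p = 0.0419).

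Its near copy Psi28S-3436b (X, 6742349 to 6742491) was scarcer in young brains. It gave 2.41, 1.46 and 2.07 CPM in 5-day-old females and 10.3, 6.66 and 5.76 CPM at 20 days. At 30 days it gave 2.84, 6.35 and 4.04 CPM, and at 40 days 9.45, 15.7 and 15.8 CPM. The 5-day-old libraries were the lowest of all 12. It rose at 20 days (log2 fold change 1.91 ± 0.36, edgeR adjusted p = 0.0295) and at 40 days (2.79 ± 0.37, adjusted p = 0.00202), and from 30 to 40 days (1.68 ± 0.36, adjusted p = 0.0263), with 20- and 30-day-old libraries overlapping.

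The other members in RpL17 moved less. Psi28S-1060 (X, 6742852 to 6743001), the most abundant of them, had means of 21.7 ± 3.26 CPM at 5 days and 32.02 ± 3.24 CPM at 40 days (SD, n = 3 each), with no overlap between these ages, and was not called (log2 fold change 0.57 ± 0.21, edgeR adjusted p = 0.103). Psi28S-1232 (X, 6743675 to 6743815) stood at 1.13 ± 0.299 and 2.08 ± 0.733 CPM (SD, n = 3 each; log2 fold change 0.90 ± 0.56, edgeR adjusted p = 0.342). The host transcript did not share the rise, for RpL17 stood at 669 ± 146 CPM at 5 days and 516 ± 36.5 CPM at 40 days (SD, n = 3 each; log2 fold change -0.37 ± 0.17, adjusted p = 0.186). It fell from 30 to 40 days (-0.79 ± 0.17, adjusted p = 0.0256).

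**Figure D3:**
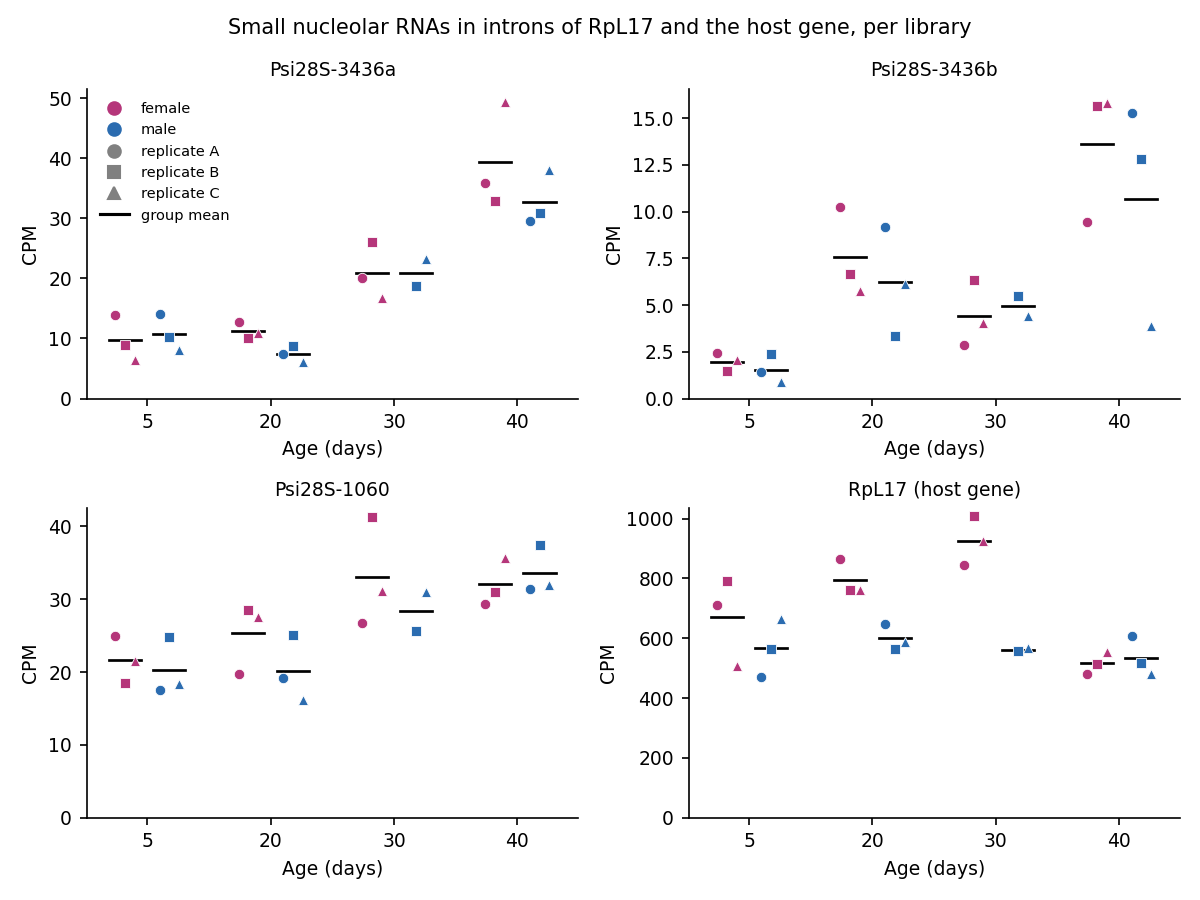
Level in CPM (linear axes) of 3 snoRNAs in introns of RpL17 and of the host gene, by age in days; points are libraries, colours sexes, shapes replicates, bars group means. Psi28S-3436a is highest in the 40-day-old libraries of both sexes (29.5 to 49.4 CPM), while RpL17 is not.

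The calls of Psi28S-3436a and Psi28S-3436b at 40 days in females held without each of the 12 libraries in turn and in every other setting except 1. Without the 4 female libraries in which mex1 exceeded 10 CPM, which leaves a single 30-day-old library, no member was called in females, while the changes stayed at 2.01 and 2.81 on the log2 scale.

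The remaining riser of the 40-day-old female brain was lola-b (2R, 10536745 to 10536905, minus strand), one of 4 snoRNAs in introns of lola, which encodes a transcription factor needed for axon guidance. It stood at 1.03, 0.708 and 1.65 CPM in 5-day-old females and at 5.45, 5.13 and 5.93 CPM in 40-day-old females. The groups did not overlap, and the 20- and 30-day-old libraries lay between 1.18 and 3.70 CPM. The log2 fold change was 2.29 ± 0.44 (edgeR adjusted p = 0.0103), and the call was lost without any 1 of the 40-day-old female libraries, with changes of 2.24 to 2.35. Its neighbour lola-a had means of 1.55 ± 0.786 and 5.72 ± 1.81 CPM (SD, n = 3 each) and passed the pairwise test (1.89 ± 0.50, edgeR adjusted p = 0.0387) but not the test over ages (adjusted p = 0.0649). The host lola did not move with them (0.00 ± 0.14, adjusted p = 0.991).

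In the same position, past the pairwise test but not the test over ages, were 2 further members of opposite sign. Psi28S-2149, in RpS7, had means of 0.124 ± 0.107 CPM at 5 days and 1.82 ± 0.406 CPM at 40 days in females (SD, n = 3 each; log2 fold change 3.79 ± 0.91, edgeR adjusted p = 0.0264, and 0.0582 over the ages). Psi18S-996, in Tudor-SN, stood at 1.21, 1.54 and 8.97 CPM at 5 days and 0.345, 0.540 and 0.0599 CPM at 40 days, without overlap and with the highest value again in replicate C (-3.68 ± 0.93, edgeR adjusted p = 0.0327, and 0.0761 over the ages). Without that library the value was -2.19 ± 0.74. DESeq2 called all 3 of these members.

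The members that fell in old female brains were 4 abundant guides of pseudouridine. Psi18S-531 (X, 763083 to 763234, minus strand) lies in the noncoding gene CR42491, next to RpL22. Its levels were 12.2, 11.5 and 10.2 CPM in 5-day-old females, 19.4, 12.4 and 22.1 CPM at 20 days, 11.3, 10.8 and 16.3 CPM at 30 days and 3.93, 3.24 and 3.23 CPM at 40 days. The 40-day-old libraries were below all others, the 20-day-old libraries were above the 5-day-old ones, and the 30-day-old ones overlapped both. It fell by 1.69 on the log2 scale from 5 to 40 days (SE 0.26, edgeR adjusted p = 0.00343) and by 1.83 from 30 to 40 days (SE 0.26, adjusted p = 0.0169). The first call held without each library in turn and failed in a single setting, the omission of the mex1 libraries.

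A pair of members in RpS5a, a gene for a protein of the small ribosomal subunit, fell from 5 to 40 days in females. The gene holds 14 snoRNAs on the X chromosome. Psi18S-1854c (X, 17145210 to 17145349, minus strand) stood at 18.8, 10.03 and 33.9 CPM in 5-day-old females and at 5.9998, 5.40 and 5.33 CPM in 40-day-old females, without overlap. It fell by 1.89 on the log2 scale (SE 0.36, edgeR adjusted p = 0.00983) and by 1.63 from 30 to 40 days (SE 0.36, adjusted p = 0.0277). Without 5-day-old female C, the highest library, the first value was -1.37 and still called, and without any 1 of the 40-day-old libraries the call was lost.

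Psi28S-1192a (X, 17144435 to 17144574) gave 11.8, 7.41 and 46.2 CPM in 5-day-old females and 3.93, 3.10 and 2.99 CPM in 40-day-old females. The highest value was again that of 5-day-old female C, and the ages did not overlap. The log2 fold change was -2.68 ± 0.58 (edgeR adjusted p = 0.0184) with that library and -1.52 without it, and the call was lost in 8 of the 12 omissions of a single library. Other members of the same host had higher means in old females, such as Psi18S-1854a with 0.280 ± 0.0949 CPM at 5 days and 1.75 ± 1.01 CPM at 40 days and Psi28S-1135e with 0.428 ± 0.115 and 1.66 ± 0.934 CPM (SD, n = 3 each), and none of these was called. RpS5a itself had a log2 fold change of -0.43 ± 0.25 (adjusted p = 0.306).

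Psi18S-1820 (2R, 24176228 to 24176367, plus strand), which lies in an intron of Nop60B, the gene of the pseudouridine synthase that it guides, had the highest level per kilobase of the 4 members that fell from 5 to 40 days. It stood at 39.6, 31.8 and 60.2 CPM in 5-day-old females, 37.3, 53.0 and 61.7 CPM at 20 days, 22.4, 25.8 and 45.8 CPM at 30 days and 9.65, 18.6 and 15.6 CPM at 40 days. The 40-day-old libraries were the lowest, and the other ages overlapped. It fell by 1.58 on the log2 scale from 5 to 40 days (SE 0.37, edgeR adjusted p = 0.0249), a call lost without 5-day-old female A, 20-day-old female B or C, 30-day-old female B or any 40-day-old female library, with values of -1.36 to -1.77. Nop60B did not follow it (-0.02 ± 0.32, adjusted p = 0.978).

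**Figure D4:**
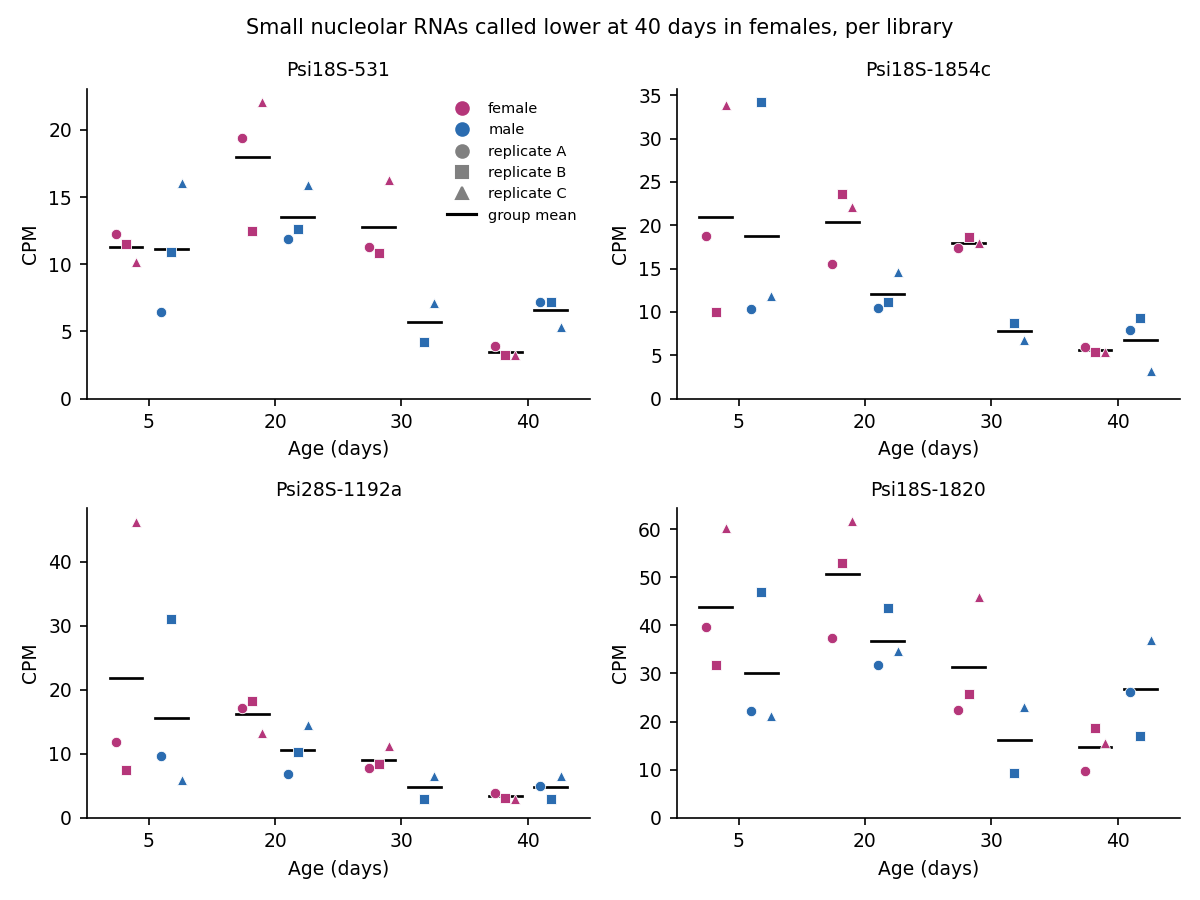
Level in CPM (linear axes) of the 4 snoRNAs called lower at 40 than at 5 days in females, by age in days; points are libraries, colours sexes, shapes replicates, bars group means. For Psi18S-531 the 40-day-old female libraries (3.23 to 3.93 CPM) lie below all other libraries of both sexes.

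At 20 against 5 days 3 of 94 members rose in females and none fell, beside 2.97% of all genes called and 1.14% that rose. Besides Psi28S-3436b, the risers were Me18S-C1831 and Psi28S-1175a. Me18S-C1831 (2L, 4457603 to 4457674, minus strand), a C/D guide of 72 bases in an intron of the ribosomal protein gene RpL27A, stood high at 20 days and was near 0 at every other age. It stood at 0.388, 0.250 and 0.210 CPM in 5-day-old females, 5.51, 4.51 and 2.76 CPM at 20 days, 0.167 to 0.402 CPM at 30 days and 0 to 0.599 CPM at 40 days. The 20-day-old libraries lay above every other female library. The log2 fold change was 3.86 ± 0.82 (edgeR adjusted p = 0.0371).

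Psi28S-1175a (2R, 22607085 to 22607220, plus strand) lies in RpS16, a small subunit protein gene with 5 snoRNAs. It stood at 3.32, 3.00 and 6.16 CPM in 5-day-old females and 12.02, 19.9 and 8.92 CPM at 20 days, without overlap (log2 fold change 1.70 ± 0.36, edgeR adjusted p = 0.0367). Its near copy Psi28S-1175c in the same host (22607385 to 22607520) had the opposite sign, with 8.10, 4.75 and 23.7 CPM at 5 days and 4.51, 2.76 and 3.87 CPM at 20 days, and was not called (-1.72 ± 0.53, edgeR adjusted p = 0.108, and -0.80 ± 0.41 without 5-day-old female C). The number of calls at 20 days changed with the omission of single libraries, those of other ages among them. Over the 12 omissions the log2 fold changes ranged from 3.66 to 4.15 for Me18S-C1831 and from 1.65 to 2.09 for Psi28S-3436b. For Psi28S-1175a they ranged from 1.34 to 2.10. The count was 0 without 5-day-old A or B or any 20-day-old library, and 1 without 30-day-old A or B or any 40-day-old library. It was 2 without 5-day-old C, where 71 of 10783 genes rose and 68 fell, and 3 without 30-day-old C. For the other omissions at 20 days the share of all genes called is not given here.

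Other pairs of ages gave few calls in females. At 30 against 5 days 1 of 94 members rose, Psi28S-3436a, beside 6.67% of all genes called and 1.86% that rose, and that call held only without 5-day-old female A or 30-day-old female C among the 12 omissions. Between 20 and 30 days no member was called by edgeR, beside 0.0% of all genes. Before adjustment, 2 members were higher and 9 lower at p under 0.05, and DESeq2 called 1, Me18S-C1831, with no share of all genes given for either. From 30 to 40 days 1 member rose and 3 fell, beside 6.61% of all genes called (3.72% rose and 2.88% fell). Besides Psi28S-3436b, Psi18S-531 and Psi18S-1854c these included SC35-a, with 38.9, 71.7 and 76.6 CPM at 30 days and 30.6, 26.1 and 30.4 CPM at 40 days. These ages did not overlap (log2 fold change -1.05 ± 0.27, edgeR adjusted p = 0.0405). The count was 0 without 30-day-old A or B or 40-day-old B or C, and 2 without 30-day-old C or 40-day-old A. It was 5 without 5-day-old A and 9 without 5-day-old C. These counts have no share of all genes beside them, so whether they moved with the calls over all genes is not shown.

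The remaining members that differed over the ages in females passed none of the 5 pairs of ages tested, which did not include 40 against 20 days. Dek-a, in an intron of the chromatin protein gene Dek, stood at 2.14 ± 1.15 CPM at 5 days, 4.73 ± 1.39 at 20 days, 2.17 ± 0.0862 at 30 days and 0.628 ± 0.323 CPM at 40 days (SD, n = 3 each). Psi28S-3327b, in RpS4, had means of 6.71, 10.5, 4.05 and 2.67 CPM at the same ages. Me18S-C1096, in RpL3, was at 0, 0.167 and 0 CPM in 5-day-old females and at 1.503, 2.29 and 4.10 CPM in 20-day-old ones. It overlaps an exon of an antisense RNA gene, and how reads in the overlap were counted depends on the use of strand, which is not given in the sources used here. Psi28S-2626, in RpS7, was among the smallest p at 30 days, with 1.35 ± 0.434 and 3.41 ± 0.270 CPM at 5 and 30 days (SD, n = 3 each), and was not called (log2 fold change 1.28 ± 0.47, edgeR adjusted p = 0.115).

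In males 1 of 116 members differed over the ages, Psi28S-3436a, beside 0.287% of all genes. Its levels were 14.02, 10.2 and 8.15 CPM at 5 days, 7.48, 8.72 and 6.08 CPM at 20 days, 18.7 and 23.2 CPM at 30 days and 29.5, 30.9 and 38.0 CPM at 40 days. As in females, the 30-day-old libraries lay above all younger ones and the 40-day-old libraries above all 30-day-old ones. It rose at 40 against 5 days (log2 fold change 1.62 ± 0.22, edgeR adjusted p = 0.0110), the only member called there, beside 0.287% of all genes called and 0.185% that rose. The call was lost without 40-day-old male B and with a block for the replicate letter, and the change was 1.48 to 1.85 over the 11 omissions of a library.

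Other members of the old male brain stayed short of a call. Psi28S-3436b gave 1.40, 2.39 and 0.869 CPM at 5 days and 15.3, 12.8 and 3.88 CPM at 40 days, without overlap. It passed the pairwise test (log2 fold change 2.78 ± 0.58, edgeR adjusted p = 0.0391) but not the test over ages (adjusted p = 0.155). Psi28S-1060 stood at 20.2 ± 3.98 and 33.6 ± 3.33 CPM (SD, n = 3 each; 0.74 ± 0.20, edgeR adjusted p = 0.0766). A snoRNA gene of no host (FBgn0263459; 2R, 13557905 to 13558055, minus strand) stood at 2.06 ± 0.773 CPM at 5 days and 7.75 ± 3.27 CPM at 40 days (SD, n = 3 each; 1.92 ± 0.46, edgeR adjusted p = 0.0563), and in females at 1.43 ± 0.876 and 6.27 ± 1.55 CPM (2.14 ± 0.61, edgeR adjusted p = 0.0509).

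No male member was called at 20 or 30 against 5 days, beside 0.037% and 0.0463% of all genes, nor at 30 against 20 or 40 against 30 days, beside 0.0% each. Before adjustment, p was under 0.05 in edgeR for 13 members at 20 days and 14 at 30 days. It was so for 12 between 20 and 30 days and 5 between 30 and 40 days. DESeq2 called 4, 0, 1 and 1. No share of all genes is given for these unadjusted or DESeq2 counts. The smallest p at 20 days belonged to the same genes as in females for Me18S-C1831 (0.0822, 0.191 and 0.320 CPM at 5 days, 2.11, 3.29 and 1.90 CPM at 20 days) and Psi28S-3436b. Psi28S-1175a stood at 5.53 ± 1.56 CPM at 5 days and 16.6 ± 3.36 CPM at 20 days, and Psi28S-1175c at 7.52 ± 4.82 and 2.47 ± 0.504 CPM (SD, n = 3 each). Psi18S-841d, in the gene of the chromatin remodeller dom, was at 0.329, 1.05 and 0.366 CPM at 5 days and had no count in any 20-day-old male library. At 30 days the smallest p also named Psi28S-2442b (15.1 ± 6.71 CPM at 5 days, n = 3, and 5.11 ± 2.86 CPM at 30 days, n = 2) and Or-aca4 (7.81 ± 3.93 and 2.17 ± 1.305 CPM), each with an edgeR adjusted p of 0.608.

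No member's response to age was called different between the sexes. Of 140 members in the joint fit of all 23 libraries, 0 passed at 20, 30 or 40 days by edgeR or by DESeq2, beside 0.0% of all genes at each age. Before adjustment, 11, 5 and 7 members had p under 0.05, for which no share of all genes is given. The smallest p at 20 days were those of Edc3-a and Pi4KIIalpha-a, each without a count at 20 days in every library of one sex and under 1 CPM in every library. At 30 days they were those of Or-aca4 (difference of log2 fold changes, female minus male, 2.13 ± 0.76, edgeR adjusted p = 0.558) and Psi18S-531 (1.15 ± 0.45, adjusted p = 0.558). At 40 days they were those of Me18S-A1494, with no count in any 40-day-old male library and none in any 20-day-old female library, and of SC35-b. SC35-b differed by -1.19 ± 0.46 (edgeR adjusted p = 0.677). For Psi28S-3436a the difference at 40 days was 0.41 ± 0.37 (adjusted p = 0.926) and for Psi28S-3436b 0.01 ± 0.90 (adjusted p = 1.0).

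Males and females were also compared at each age. EdgeR called 0 of 140 members at 5, 20, 30 and 40 days, beside 0.168%, 0.344%, 0.997% and 0.362% of all genes. Before adjustment, 1, 21, 4 and 18 members had p under 0.05, and DESeq2 called 0, 3, 1 and 3. The percentages above belong to edgeR's adjusted test, so these counts have no background here.

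Side by side, the changes at 40 days in the 2 sexes mostly had the same sign. Of the 88 members tested in both, 46 were higher and 27 lower at 40 than at 5 days in both sexes. The same count over all genes is not given here, and many members are near copies, so whether this agreement is particular to snoRNAs was not tested. The sexes share no libraries, but the high 5-day-old library of each sex enters its own contrast.

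**Figure D5:**
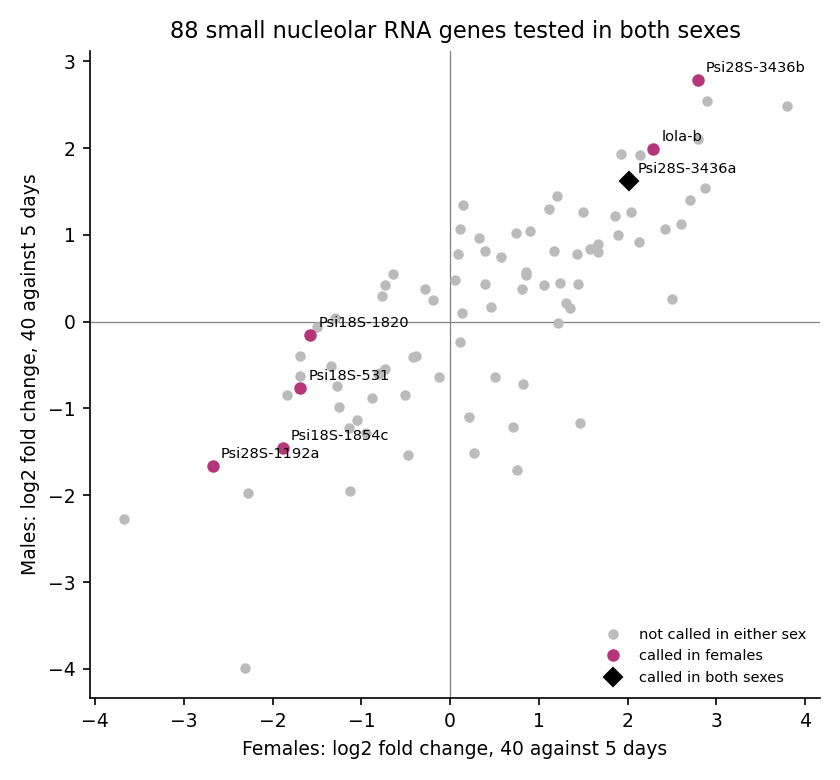
Log2 fold change at 40 against 5 days in males against that in females, 1 point for each of the 88 members tested in both sexes; colours mark members called in females and a diamond the one called in both. Psi28S-3436a lies at 2.02 in females and 1.62 in males.

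Medians over the whole set moved with 1 library of each sex. In females the median log2 fold change of the 94 members was 0.50 at 20, 0.16 at 30 and 0.41 at 40 days against 5 days, beside -0.04, 0.00 and -0.03 for all genes tested. Without 5-day-old female C the medians of 113 members were 1.09, 0.69 and 1.40, beside -0.01, 0.03 and -0.01 for all genes. With all libraries the 20-day median was 0.17 by DESeq2, 0.12 without a filter on low counts and -0.0051 with the trend on exon length removed. In males the medians of 116 members were -0.12, -0.03 and 0.38, beside 0.01, -0.02 and -0.01, and without 5-day-old male B they were 0.25, 0.34 and 0.79. With the trend on exon length removed the male median at 40 days was 0.0742. Members with no count in a whole group numbered at most 3 in a contrast. A bound (from a floor of 3 counts per library) was missing for 1 of 1 in females at 20 days. In males it was missing for 2 of 3 at 20 days and 1 of 1 at 30 days. With bounds used where they existed, no median moved by more than 0.01, a check that does not cover the members without a bound. For other genes with 300 or fewer exon bases the female medians were 0.21, 0.00 and 0.20, and the male ones 0.08, -0.04 and 0.48.

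By class, members named Psi28S had a median of 0.73 at 40 days in females (46 tested, 2 rose and 1 fell) and those named Psi18S one of -0.35 (18 tested, 3 fell), beside 2.47% of all genes that rose and 4.87% that fell. The 15 tested with other names had a median of 1.24 (1 rose), the 7 Me28S genes one of 0.43 and the 4 Me18S genes one of 0.91, with no call. Both tested Or-aca genes were lower (median -1.77), neither called. Without 5-day-old female C the Psi18S median turned to 0.63 (21 tested, 1 rose and 3 fell), beside 511 of 10783 genes that rose and 686 that fell. In that setting the medians of Psi28S, other names, Me28S and Me18S were 1.28, 2.08, 1.77 and 2.01, and that of Or-aca -1.03.

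Host genes were set beside their snoRNAs. Of 74 hosts tested in females, 26 differed over the ages, beside 14.5% of all genes tested. At 40 against 5 days 6 rose and 3 fell, beside 2.47% of all genes that rose and 4.87% that fell. From 30 to 40 days 5 rose and 17 fell, beside 3.72% of all genes that rose and 2.88% that fell. Of 75 hosts in males none was called by edgeR, beside 0.287% of all genes (before adjustment, p was under 0.05 for 16 higher and 1 lower). RpL22, next to Psi18S-531, fell by 0.96 on the log2 scale in females (SE 0.15, edgeR adjusted p = 0.00354), and CR42491 fell from 30 to 40 days (by 1.07, SE 0.23, adjusted p = 0.0255). Uhg4, a noncoding gene that hosts 7 snoRNAs, rose at 40 days in females from 2.47 ± 0.445 to 10.9 ± 0.985 CPM (SD, n = 3 each; log2 fold change 2.15 ± 0.34, edgeR adjusted p = 0.00412).

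Of the 7 snoRNAs in Uhg4, 2 were tested in females, and the mean of each was lower at 40 days. Or-CD2 stood at 23.1, 17.6 and 96.0 CPM in 5-day-old females and at 16.6, 27.7 and 17.1 CPM in 40-day-old females (log2 fold change -1.13 ± 0.57, edgeR adjusted p = 0.244), with overlap, and without 5-day-old female C the difference was 0.01 ± 0.29. Or-aca5 stood at 15.6, 10.3 and 60.6 CPM and at 5.45, 7.56 and 4.67 CPM, without overlap (-2.27 ± 0.65, edgeR adjusted p = 0.0555), and the difference was -1.14 ± 0.41 without the same library. Neither was called. In males Or-aca5 gave 12.04, 42.1 and 8.37 CPM at 5 days and 3.97, 3.32 and 8.31 CPM at 40 days (-1.97 ± 0.61, edgeR adjusted p = 0.113, and -0.94 ± 0.43 without 5-day-old male B). Uhg4 in males had a log2 fold change of 1.99 ± 0.46 (adjusted p = 0.0513).

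Genes of the modification machinery were not called against 5 days in either sex. Of the H/ACA protein core (Nop60B, NHP2, CG4038 and CG7637) 0 of 4 were called by edgeR at any age, the median at 20, 30 and 40 days being 0.48, 0.40 and -0.12 for females, and 0.55, 0.30 and 1.11 for males. In 40-day-old males all 4 had p under 0.05 before adjustment, each higher, and in 40-day-old females none had. Of the C/D core (Fib, nop5, Nop56 and hoip) 0 of 4 were called, the median being 0.24, 0.48 and -0.12 for females, and 0.38, 0.35 and 0.81 for males. The 10 genes of assembly and processing had no call and medians of -0.14 to 0.22. Among noncoding Uhg host genes Uhg1 and Uhg5 rose in females at 20 days and Uhg1, Uhg4 and Uhg5 at 40 days, of 6 tested, beside 1.14% and 2.47% of all genes that rose, and none of 7 was called in males (at 40 days p was under 0.05 before adjustment for 6, all higher). No small nuclear RNA and no small Cajal body RNA was called against 5 days in either sex.

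Against these, the 5 copies of Psi18S-1377 left out of the set all rose in females at 20, 30 and 40 days, beside 1.14%, 1.86% and 2.47% of all genes, and 1, 4 and 4 rose in males. Their median log2 fold changes at 40 days were 2.53 and 2.90 in females and males.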

How the data were processed

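Brain RNA was prepared with the RNeasy Plus Micro kit, treated with DNase and made into libraries with the Ovation Universal RNA-Seq kit; its effect on short RNAs was not measured. According to the labels and methods, the authors trimmed paired reads with Trimmomatic 0.35, aligned them with STAR to dm6 and counted reads per gene with HTSeq in union mode, which leaves out reads that overlap 2 genes; whether strand was used is not given in the sources used here. The deposited values are raw counts per gene. The remaining 30-day-old male sample had been dropped by the authors as contaminated.

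Members were found by symbol and placed by the Release 6 annotation, which has the coordinates of dm6; 30 of 268 did not match. Levels are CPM scaled by TMM over 23 libraries. For each sex alone, age was fitted as the factor by the robust quasi-likelihood method of edgeR 4.0.16 under R 4.3.3, after filterByExpr and TMM scaling, with Benjamini-Hochberg adjustment over all genes; sexes were compared in a fit of 8 groups. The SE is the log2 fold change over the square root of F. The procedure was also run on simulated counts. There the changed genes lay above the level of most members, and no library stood apart. That run therefore does not show how well changes of scarce members are found. Nothing says that replicates came from separate cohorts beyond separate pools, so p-values measure the spread between pools. Members, lists and tests were chosen with earlier results of these data known.

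Named members are those called, the 4 smallest p in each contrast with 5 days, the 2 smallest p of each interaction, the 12 highest CPM, and all members of a unit with 3 or more so named; Psi18S-1854a, Psi28S-1135e, lola-a, Psi28S-2149 and Psi18S-996 were chosen after their values were seen. Of the C/D core list, CG13849 was not analysed here. Alternatives were DESeq2 1.42.0 with the study's settings, other size factors and filters, a replicate block, other samples in the fit, the pairwise test alone, an exon-length trend and omission of libraries. No sequences were used here. Counting intervals were not used, since libraries were compared as replicates.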

Additional observations from a re-analysis of the deposited data

How the results depend on the processing

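Directions never reversed among the members called, while counts of calls moved. DESeq2 called 30 members over the ages in females and 6, 3 and 17 at 20, 30 and 40 against 5 days, 1 between 20 and 30 and 7 between 30 and 40 days. In males it called 12 over the ages, 4 and 7 at 20 and 40 days and 1 in each pair of neighbouring older ages. Between the sexes it called 3, 1 and 3 at 20, 30 and 40 days. The shares of all genes printed above are those of edgeR. Neither these counts nor those of the other settings in this paragraph have a background here. Without the mex1 libraries the female counts over the ages and at 20, 30, 40 and 40 against 30 days were all 0; the cause was not tested, but a single 30-day-old library remained. Only the 2 ages compared gave 0 at 20 and 30 days in females. With the trend on exon length removed the female counts were 1, 0 and 11. In males, both sexes in 1 fit gave 2 over the ages and 2 at 40 days, and the pairwise test alone gave 2 at 40 days.

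The main fits did not pair samples by replicate letter. Correlations between libraries of different letters were not computed, so whether same-lettered libraries share an effect cannot be told. Deviations of same-lettered libraries correlated between -0.567 and 0.591 over 18 female pairs (10 above 0.1, all 6 of replicate C among them) and between -0.398 and 0.340 over 15 male pairs (2 above 0.1). With the replicate block 8 members were called over the ages and 1 at 20 days in females, and 0 over the ages and 0 at 40 days in males.

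The members' medians also moved; the cause was not tested. At 20 and 40 days in females they were 0.17 and 0.69 with DESeq2 and 0.12 and 0.67 without a filter, and 0.00 at 30 against 20 days with both. In males DESeq2 gave -0.31 at 20 days and 0.21 at 30 against 20 days, and no filter -0.36 and 0.21. Between the sexes at 20 days they were 0.12 and 0.10. The length trend gave -0.0051 at 20 days and -0.0065 at 30 against 20 days in females, 0.0742 at 40 days and 0.14 at 40 against 30 days in males, 0.0436 and 0.0619 for the sex difference of the age effect at 20 and 40 days, and 0.0935 between the sexes at 20 days. That difference was 0.0679 at 40 days with 1 CPM in 3 libraries and -0.11 at 30 days without the mex1 libraries, and library totals gave -0.16 between the sexes at 30 days.

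Leaving out 1 library gave, in females, 4 to 20 calls over the ages, 0 to 3 at 20, 0 to 1 at 30 and 3 to 12 at 40 days, and 0 to 9 at 40 against 30 days. It gave 0 to 1 in males over the ages and at 40 days. Between the sexes it gave 0 to 2 at 20 and 0 to 1 at 30 days. Shares of all genes called are not set beside these ranges. Medians ranged from 0.39 to 1.09, 0.0168 to 0.69 and 0.39 to 1.40 in females at 20, 30 and 40 days, from -0.51 to -0.19 at 30 against 20 and from 0.19 to 0.61 at 40 against 30 days. In males they ranged from -0.34 to 0.25, -0.16 to 0.34 and 0.13 to 0.79, from -0.19 to 0.33 and from 0.29 to 0.61. For the sex difference of the age effect they ranged from 0.26 to 1.11, -0.26 to 0.70 and -0.28 to 0.79, and between the sexes from -0.67 to 0.29, 0.44 to 0.63, -0.13 to 0.21 and 0.00 to 0.19 at the 4 ages. Depth limits the members below 1 CPM, most of which were not tested.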
